A study of Mus musculus with 8 samples.

Results

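The 32 genes described here are ones that enteric neurons, enteric glia and the pacemaker cells of the gut wall are known to use, and they were looked up by symbol among the 52143 genes measured in mouse colon. They fall into 12 pan-neuronal genes, 11 genes of transmitters and peptides, 6 glial genes and 3 pacemaker genes. All 32 were measured, and no member's symbol was repeated. RNA-Seq was done on 4 Control and 4 Siglec-XII samples of colon (distal colon, per the Methods) from female mice that were 8 weeks old at the start. Control mice carried Villin1-Cre-ERT only. Siglec-XII mice (SIGLEC12-Villin1-Cre-ERT) carried in addition the human SIGLEC12 gene in the ROSA26 locus, heterozygous and preceded by a floxed egfp with a stop codon. Mice of both genotypes received tamoxifen for 5 days (10 mg/ml) and were harvested 7 days after the last dose, on day 12 of the scheme. The villin promoter drives Cre in the epithelium, so the neurons, glia and pacemaker cells were not themselves targeted in either genotype. No row for the transgene, egfp or Cre was among the values used here, and the genotypes rest on the labels alone. The labels list 4 samples per genotype and the design text 3 mice, so it is not stated that each sample is a separate mouse, and p-values measure the spread between these samples, which may in part be technical.

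The enteric nervous system lies in the gut wall as a myenteric plexus between the muscle layers and a submucosal plexus beneath the epithelium. Its motor neurons excite muscle with acetylcholine and tachykinins and relax it with nitric oxide and VIP, its glia ensheathe the neurons, and interstitial cells of Cajal set the slow electrical rhythm of the muscle. Several genes of this list are also used by other cells of the colon: Kit by mast cells, Ddc, Tac1 and Syp by enteroendocrine cells, and Ddc and Ano1 by epithelial cells.

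Values are given in TPM (a transcript's share of the library per unit of its length, on a scale that totals 1000000), or on the deposited scale of log2(TPM + 1), where a difference understates the change of genes near 0. Read numbers cannot be had from TPM, which leaves the depth of each value unknown. Between 12748 and 13715 genes per sample reached 1 TPM. Siglec-XII 3 and Siglec-XII 4 stood apart: their tested genes were shifted by -0.23 and -0.37 on the log2 scale from the mean of the 8 samples, against -0.02 to 0.18 in the other 6. Mitochondrial transcripts held 5.74% to 12.8% of the TPM, on average 6.80% in Control and 10.0% in Siglec-XII. The median difference between the groups over all genes tested was -0.15, and the difference of each tested member has to be read against it.

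Most genes that define these cells lay close to 0 in the Control samples, and the summed level of the list came from 2 genes with wide use outside it. The 32 genes together reached 272 TPM in Control on average, and Ano1 and Ddc held 83.4% of that. In 16 of the 32 genes no sample reached 1 TPM, and 7 genes (Uchl1, Snap25, Tac1, Ddc, Fabp7, Kit and Ano1) were at 1 TPM or more in every sample. Among the defining genes, Elavl4 (an RNA-binding protein of neurons) was at most 0.283 TPM in any sample, Ret (the receptor for GDNF family ligands) at most 0.682, Chat (which makes acetylcholine) at most 0.210, Nos1 (neuronal nitric oxide synthase) at most 0.115 and Sox10 (a transcription factor of glia) at most 0.221. Levels are therefore given by gene and not assigned to these cell types. Npy, a neuropeptide, was listed at 0 in 7 of 8 samples.

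Among the pan-neuronal genes, Uchl1 was highest in Control at 5.33 ± 2.24 TPM (SD, n = 4) and exceeded the next gene in every Control sample. Snap25 (2.23 ± 0.27), Tubb3 (1.72 ± 0.73), Syp (1.57 ± 0.35), Prph (1.49 ± 0.81) and Stmn2 (1.28 ± 0.67) followed, with ranges that overlapped from each to the next. Below 1 TPM came Nefl (0.704 ± 0.130), Ret (0.553 ± 0.098), Nefm (0.537 ± 0.222), Syt1 (0.203 ± 0.067), Elavl4 (0.179 ± 0.078) and Elavl3 (0.132 ± 0.040), and neighbouring ranges overlapped, although Nefm was above Syt1 within every Control sample. In the transmitter class, Ddc (72.3 ± 25.1 TPM) lay above Tac1 (11.8 ± 1.9) and Tac1 above Vip (2.41 ± 1.93) in every Control sample. The remaining transmitter genes were at 0.628 TPM (Calb2) or lower on average, down to 0.0252 for Npy, and overlapped from each to the next except that Slc5a7 (0.470 ± 0.271) lay above Slc18a3 (0.140 ± 0.039). Fabp7 (2.58 ± 0.38 TPM), Gfap (1.67 ± 0.26) and Ednrb (0.500 ± 0.108) were separated from one another in Control, and from Ednrb down S100b (0.244 ± 0.146), Sox10 (0.115 ± 0.082) and Cdh19 (0.0719 ± 0.0146) overlapped from each to the next. Of the pacemaker genes, Ano1 stood at 155 ± 41 TPM, Kit at 7.11 ± 1.98 and Etv1 at 0.682 ± 0.256, with no overlap between them.

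**Figure D1:**
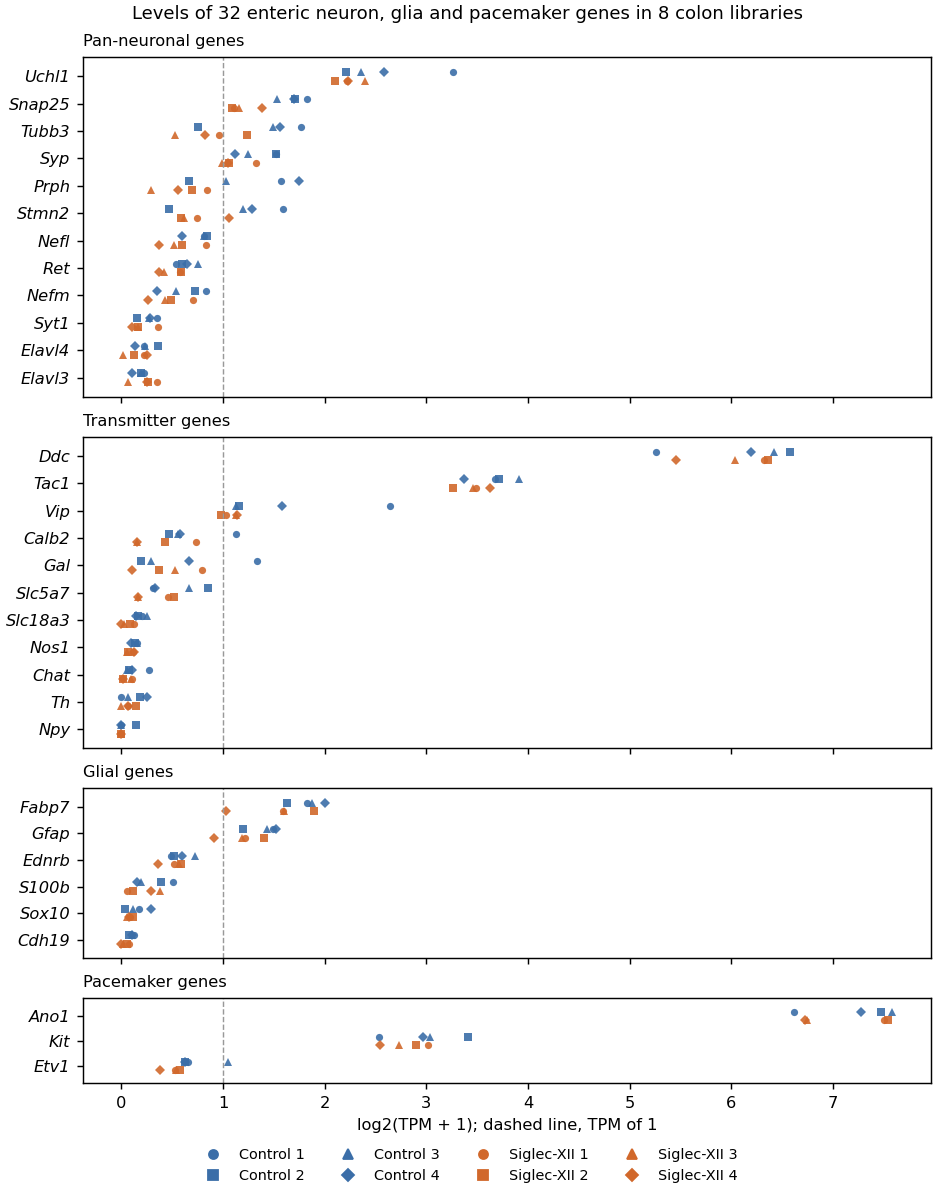
Levels of the 32 genes in each of the 8 samples on the log2(TPM + 1) scale, by class and ordered within a class by Control level; blue marks Control, orange Siglec-XII, and the dashed line is 1 TPM. Ddc and Ano1 lie far to the right of the other genes, and Snap25 is the gene above 1 TPM whose blue and orange points do not overlap.

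Siglec-XII and Control samples were compared to ask whether expression of Siglec-XII in the epithelium went with a change in genes of these neighbouring cells. The limma fit took in the 13164 genes that reached 1 TPM in 4 or more samples, and 12 of the 32 members were among them (Tubb3, Uchl1, Snap25, Stmn2, Syp, Vip, Tac1, Ddc, Gfap, Fabp7, Kit and Ano1). None of the 12 passed at an adjusted p of 0.05, which 0.038% of all genes did. Snap25 alone passed at an unadjusted P of 0.05, and 7.67% of all genes tested were lower in Siglec-XII at that limit. No member passed at this P with a fold change of 2, against 0.919% of all genes. Since these samples are whole tissue, fewer cells of a type and less RNA per cell cannot be told apart in any of these values.

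On the deposited scale the members' differences pointed mostly one way, as did those of the other genes. The log2 difference (Siglec-XII minus Control) was below 0 in 31 of 32 members. It was below 0 in all 12 tested members, against 78.1% of all genes tested, and in 19 of the 20 others, against 61.5% of genes above 0 that were not tested. Elavl3, another RNA-binding protein of neurons, was the exception at 0.05. The median difference of the 32 members was -0.158, against -0.152 for all genes tested and -0.039 for all genes above 0 in any sample. The 32 include 20 genes too low to test, and differences of genes near 0 are understated on this scale. By class, the members' median was -0.22 for pan-neuronal genes, -0.13 for transmitter genes, -0.09 for glial genes and -0.19 for pacemaker genes. With tested genes alone it was -0.39 for pan-neuronal (5 genes), -0.21 for transmitter (3), -0.27 for glial (2) and -0.15 for pacemaker genes (2). Without Siglec-XII 3 and Siglec-XII 4 the members' median was -0.058 and 29 of 32 were below 0. The median of all genes tested was then 0.0031, with 49.1% of them below 0. With each sample rescaled to its median gene, 29 of 32 members and 44% of all genes tested were below 0. With quantile normalization these were 27 of 32 and 46.3%. The shares are of tested genes, and 20 of the members were not tested. With each sample rescaled to the level of its smooth muscle genes, 15 of 32 members were below 0 with a median of 0.014. The median of all genes tested then moved to 0.40, with 7.91% of them below 0. Some tested members, such as Tubb3 and Stmn2, reached 1 TPM in 3 Control samples and in 1 Siglec-XII sample, so the filter itself took part in which members were tested.

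**Figure D2:**
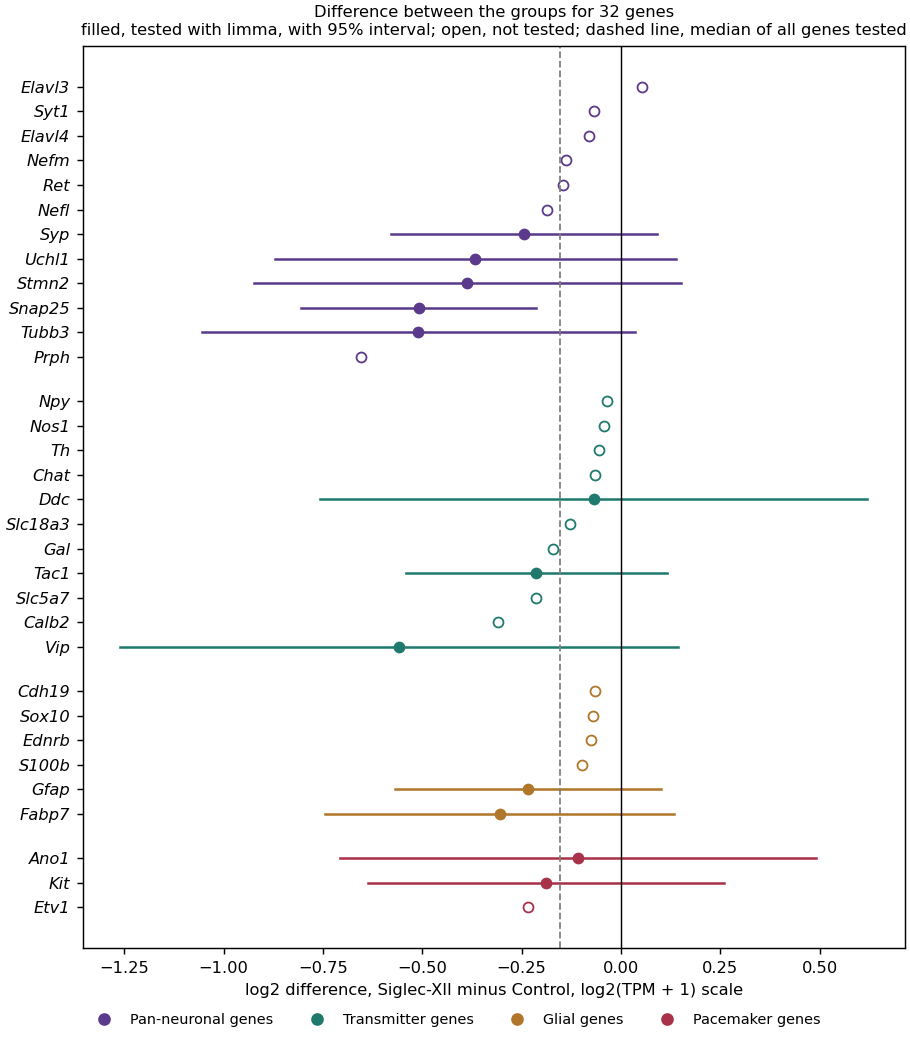
Difference between the groups for each of the 32 genes on the log2(TPM + 1) scale; filled points with bars are the 12 genes tested with limma and their 95% intervals, open points were not tested, and the dashed line is the median of all genes tested. Of the 12 intervals, only that of Snap25 lies wholly below 0, and Elavl3 is the sole point above 0.

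Snap25, a SNARE protein of the presynaptic membrane, was lower in the Siglec-XII samples. It stood at 2.54, 2.26, 1.89 and 2.24 TPM in Control 1 to 4 and at 1.15, 1.12, 1.22 and 1.60 TPM in Siglec-XII 1 to 4. The groups did not overlap, which was so, with Siglec-XII lower, for 4.06% of all genes tested. The log2 difference was -0.51 ± 0.13 (SE), with a 95% interval of -0.80 to -0.21 (limma, unadjusted P = 0.00362, adjusted p = 0.515). Without Siglec-XII 3 and Siglec-XII 4 it was -0.59, and it ranged from -0.77 to -0.09 over all alternatives. Snap25 (chr2:136713453-136782428, GRCm38, plus strand, protein coding) overlaps an annotated gene on the opposite strand, with which it shared few windows of 31 bases, at most 0.355% with any gene. The call was lost with quantile normalization (-0.33, unadjusted P = 0.0685) and with rescaling to the smooth muscle genes (-0.09, unadjusted P = 0.732).

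The other 4 tested pan-neuronal genes did not pass in limma, and their intervals reached from well below 0 to just above it. Uchl1, a ubiquitin hydrolase abundant in neurons, stood at 8.59, 3.62, 4.11 and 4.99 TPM in Control 1 to 4 and at 3.65, 3.28, 4.25 and 3.70 TPM in Siglec-XII 1 to 4. Control 1 was far above the other samples of both groups, and without it the difference of -0.37 (95% interval -0.87 to 0.14) became -0.15. Uchl1 shared 14.8% of its 31-base windows with other genes, the largest part with Uchl1os, an annotated gene on the opposite strand. Tubb3, a neuronal beta-tubulin, ranged from 0.690 to 2.41 TPM in Control and from 0.443 to 1.35 in Siglec-XII, with a difference of -0.51 (95% interval -1.06 to 0.04). Stmn2, which acts on microtubules of growing neurites, ranged from 0.386 to 2.01 TPM in Control and from 0.498 to 1.08 in Siglec-XII, with a difference of -0.39 that was -0.24 without Control 1. Control 2 was the lowest Control sample in both genes, at 0.690 and 0.386 TPM. Without it both passed at unadjusted P in limma (Tubb3 at -0.72 with unadjusted P = 0.00567 and Stmn2 at -0.61 with unadjusted P = 0.00897). Tubb3 also passed without Siglec-XII 2, the highest of its group (-0.63, limma, unadjusted P = 0.0397). These fits left out the sample that opposed the difference most, and both genes entered the test mainly through Control samples. The passes are thus no support for a difference. Syp, a membrane protein of synaptic vesicles, differed by -0.24 (95% interval -0.58 to 0.09).

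Prph, a neurofilament protein of peripheral neurons, had the largest difference of the 32 genes at -0.65 and was not tested, since 3 samples reached 1 TPM. It ranged from 0.589 to 2.36 TPM in Control and from 0.226 to 0.796 in Siglec-XII, so the groups overlapped at Control 2. In a fit with no filter on low values its unadjusted P in limma was 0.0368 (adjusted p = 0.682). The neurofilament genes Nefl (-0.19) and Nefm (-0.14) lie on opposite strands of chr14 and overlap, at 68083863 to 68089095 and 68082590 to 68124846. They shared 32.2% and 19.1% of their 31-base windows with other genes, the largest part with each other. Reads could thus be split between them, and their levels are uncertain. The calcium sensor Syt1 (-0.07), the receptor Ret (-0.15) and Elavl4 (-0.08) were at most 0.682 TPM in any sample and their groups overlapped. Summed over the 12 genes, pan-neuronal TPM was 11.9 to 22.0 in Control and 8.94 to 11.3 in Siglec-XII. Uchl1 held 5.33 of the mean Control sum of 15.9 TPM. Of the 12 genes 1, Snap25, had groups that did not overlap, as did 2.97% of all genes above 0 in any sample with Siglec-XII lower. The sums were not rescaled for the downward shift of Siglec-XII 3 and Siglec-XII 4.

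Of the transmitter genes, Ddc and Tac1 held nearly all of the class's TPM, and neither passed at unadjusted P in the main limma fit. Ddc makes serotonin and dopamine from their precursors. It stood at 37.3, 94.8, 84.7 and 72.4 TPM in Control 1 to 4 and at 79.2, 81.5, 64.8 and 42.8 TPM in Siglec-XII 1 to 4. The lowest samples were Control 1 and Siglec-XII 4, the groups overlapped, and the difference was -0.07 with a 95% interval of -0.76 to 0.62. Tac1, the precursor of substance P, stood at 11.8, 12.1, 14.0 and 9.37 TPM in Control 1 to 4 and at 10.2, 8.57, 10.0 and 11.3 TPM in Siglec-XII 1 to 4. Its groups overlapped as well, with a difference of -0.21 (95% interval -0.54 to 0.11) that was -0.13 without Control 3 and -0.31 without Control 4. With array weights Tac1 passed at -0.33 (limma, unadjusted P = 0.0231), a setting in which 14.1% of all genes tested passed. Vip, the precursor of a relaxing peptide of inhibitory motor and secretomotor neurons, differed by -0.56 (95% interval -1.26 to 0.14), and Control 1 at 5.25 TPM was apart from the other 3 Control samples at 1.18 to 1.99. Without Control 1 the difference of Vip was -0.22. Its Siglec-XII samples lay between 0.974 and 1.19 TPM.

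The genes of acetylcholine transmission were near the floor of the measurement. Slc18a3, which loads acetylcholine into vesicles, stood at 0.148, 0.118, 0.191 and 0.103 TPM in Control 1 to 4 and at 0.0911, 0.0621, 0.0158 and 0 TPM in Siglec-XII 1 to 4. The lowest Control sample was just above the highest Siglec-XII sample, with a difference of -0.13. In the fit without a filter its unadjusted P in limma was 0.00849 (adjusted p = 0.682). Slc18a3, Etv1 and Snap25 were the 3 of 32 members with groups that did not overlap, all lower in Siglec-XII, and this was so for 2.97% of all genes above 0 in any sample. Slc18a3 (chr14:32462438-32464850, minus strand) lies within Chat on the same strand, and the 2 genes shared no 31-base window. Chat differed by -0.07 and Slc5a7, the choline transporter of these neurons, by -0.21, with overlapping groups.

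Among the remaining transmitter genes, Gal (galanin) differed by -0.17, Calb2 (the calcium-binding protein calretinin) by -0.31, Th (the first enzyme of catecholamine synthesis) by -0.06, Nos1 by -0.04 and Npy by -0.03. Gal and Calb2 reached 1 TPM in Control 1 alone, at 1.52 and 1.18 TPM. Th was listed at 0 in Control 1 and Siglec-XII 3.

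No glial gene passed, and the 2 that were abundant enough to be tested lay lowest in Siglec-XII 4. Fabp7, a fatty acid binding protein of glia and their precursors, stood at 2.55, 2.09, 2.66 and 3.02 TPM in Control 1 to 4 and at 2.02, 2.71, 2.03 and 1.04 TPM in Siglec-XII 1 to 4. Its difference was -0.31 (95% interval -0.74 to 0.13), and -0.14 without Siglec-XII 4. Gfap, the intermediate filament of glia, stood at 1.81, 1.29, 1.70 and 1.88 TPM in Control 1 to 4 and at 1.32, 1.64, 1.27 and 0.880 TPM in Siglec-XII 1 to 4. It differed by -0.23 (95% interval -0.57 to 0.10), or by -0.15 without Siglec-XII 4, and the groups of both genes overlapped. Ednrb, the receptor for endothelin 3, differed by -0.08, S100b, a calcium-binding protein of glia, by -0.10, Sox10 by -0.07 and the cadherin Cdh19 by -0.06, all at most 0.648 TPM in any sample. Cdh19 was listed at 0 in Siglec-XII 4, and its unadjusted P in limma without a filter was 0.0179 (adjusted p = 0.682).

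Ano1 and Kit were high in the same samples, with no difference between the groups that passed. Ano1, the calcium-activated chloride channel of the interstitial cells of Cajal, stood at 96.9, 177, 191 and 154 TPM in Control 1 to 4 and at 180, 185, 106 and 105 TPM in Siglec-XII 1 to 4. Control 1, Siglec-XII 3 and Siglec-XII 4 were apart below the other 5 samples, and the difference of -0.11 had a 95% interval of -0.71 to 0.49. Kit, the receptor tyrosine kinase on which these cells depend, stood at 4.78, 9.61, 7.22 and 6.81 TPM in Control 1 to 4 and at 7.12, 6.45, 5.62 and 4.84 TPM in Siglec-XII 1 to 4. Control 1 and Siglec-XII 4 were again lowest, and the difference was -0.19 (95% interval -0.64 to 0.26). With 1 sample left out it went from -0.34 (without Control 1) to -0.05 (without Control 2). Etv1, a transcription factor of these cells, stood at 0.571, 0.546, 1.07 and 0.546 TPM in Control 1 to 4 and at 0.442, 0.487, 0.452 and 0.301 TPM in Siglec-XII 1 to 4. Its groups did not overlap, with a difference of -0.23, but Control 3 was far above the other Control samples. Etv1 also shared 10.0% of its windows with other genes, the largest part with Gm5454. In the fit without a filter Etv1 did not pass (unadjusted P in limma 0.0785, adjusted p = 0.682). Genes of mast cells, which also carry Kit, summed to 0.811 to 1.54 TPM over 7 genes in all 8 samples, with Ms4a2 listed at 0 in each.

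On the deposited scale, levels of Ddc and Kit ran with those of epithelial genes across the samples. Each of the 12 tested members was set against the mean log2 level of 10 epithelial, 10 smooth muscle and 12 enteroendocrine genes, 36 relations in all, chosen after the values were seen, with exact permutation tests over the pairings of 8 samples. Ddc had r = 0.947 with the epithelial genes (exact p = 9.92e-05, adjusted 0.00357; rho = 0.929, exact p = 0.00223, adjusted 0.0268). Kit had r = 0.931 with them (exact p = 0.000347, adjusted 0.00625; rho = 0.952, exact p = 0.00114, adjusted 0.0268). Without Control 1 and Siglec-XII 4, the samples farthest from the median, r was 0.972 for Ddc and 0.840 for Kit. Ano1 fell into 3 low and 5 high samples, so no pooled value on the deposited scale is given for it. The 3 low samples, Control 1, Siglec-XII 3 and Siglec-XII 4, were also the 3 lowest in the epithelial genes, and the 3 lowest in the shift of all tested genes.

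Both measures come from the same libraries and share their scale, so the permutation p-values cannot tell a relation of these genes from that shared scale. Of all genes tested outside the epithelial list, 1.01% had an r with it as high as Ddc and 2.33% as high as Kit. After each sample was rescaled to its median gene, r was 0.668 for Ddc and 0.665 for Kit, and 10.2% and 10.4% of genes were as high. For Ano1 r was 0.605 after this rescaling, with 14.3% of genes as high. The epithelial genes summed to 12405 to 16741 TPM in Control and to 13812 to 16979 in Siglec-XII.

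Syp followed the enteroendocrine genes in the same way. Its r with them was 0.902 (exact p = 0.00241, adjusted 0.0217; rho = 0.929, exact p = 0.00223, adjusted 0.0268). It was 0.818 without Control 2 and Siglec-XII 3, the samples farthest from the median. After rescaling to the median gene r was 0.854, and 0.220% of all genes tested had one as high. Syp shared 17.1% of its windows with other genes, the largest part with Gm14703, an annotated gene on the opposite strand of chrX. With smooth muscle genes Gfap had r = 0.846 (exact p = 0.0103, adjusted 0.0741) and Fabp7 r = 0.869 (exact p = 0.0181, adjusted 0.109), neither past 0.05 after adjustment. Apart from Ano1 with the epithelial genes, the remaining relations had adjusted p-values for r of 0.268 or more (exact permutation tests).

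**Figure D3:**
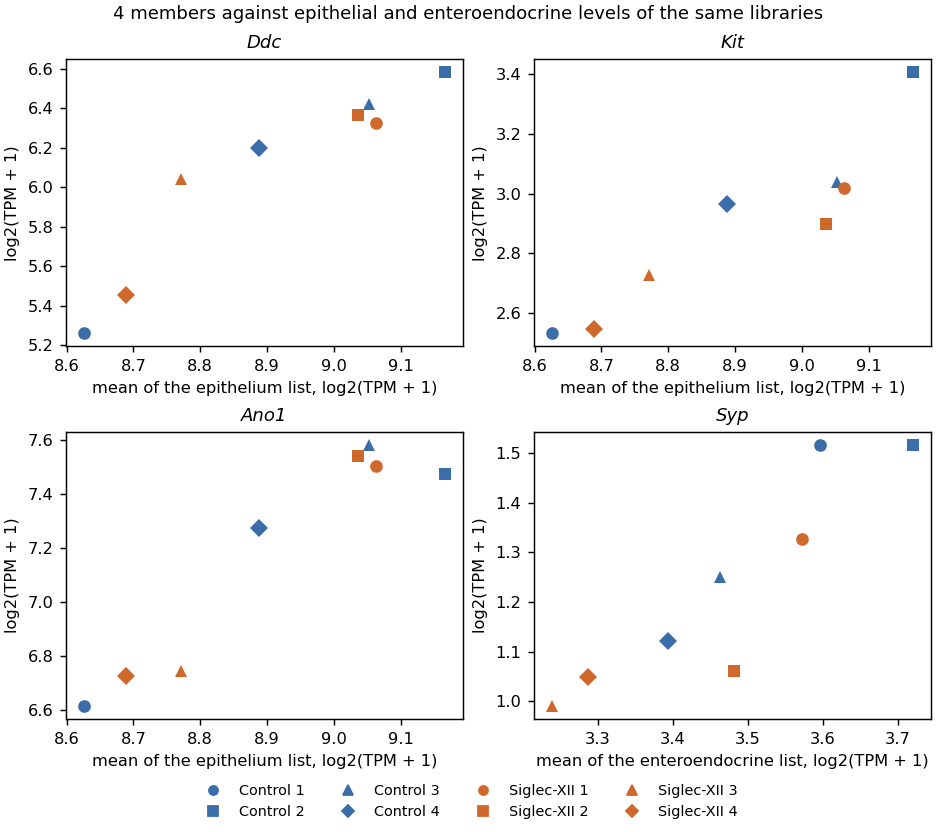
Each sample's level of Ddc, Kit and Ano1 against the mean of 10 epithelial genes, and of Syp against the mean of 12 enteroendocrine genes, all in log2(TPM + 1); blue marks Control and orange Siglec-XII. Points of both colours lie along a rising line for Ddc and Kit, and Ano1 falls into 3 low and 5 high samples.

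The promoters of Ddc, Kit and Ano1, whose levels were lowest in Control 1 and Siglec-XII 4, and of Syp are shown to set their sequences side by side. Each is a RefSeq window (GRCm38.p6) from 250 bases before to 50 after an annotated start, written 5′ to 3′ on the gene's strand, and 24 of the 32 members had at least 1 such window, 31 in all. Capitals mark any of 8 motifs, each searched on both strands. The RE1 element of neuronal genes was searched as its parts TTCAGCACC, then GGACAGC. E-boxes were searched as CAGCTG (the first form), while the second form was CACCTG. The SOX core was ACAAAG, the cyclic AMP response element TGACGTCA, the TATA box TATAAA, and the GC box was GGGCGG. The second part of RE1 can share letters with the first form of the E-box where they meet.
Ddc, chr11:11890359-11890658, minus strand: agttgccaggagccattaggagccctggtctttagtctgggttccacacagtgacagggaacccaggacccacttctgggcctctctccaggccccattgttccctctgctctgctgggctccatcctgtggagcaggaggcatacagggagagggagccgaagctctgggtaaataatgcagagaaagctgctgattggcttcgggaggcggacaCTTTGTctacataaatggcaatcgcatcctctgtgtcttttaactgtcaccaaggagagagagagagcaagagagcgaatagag
Ddc, chr11:11898095-11898394, minus strand: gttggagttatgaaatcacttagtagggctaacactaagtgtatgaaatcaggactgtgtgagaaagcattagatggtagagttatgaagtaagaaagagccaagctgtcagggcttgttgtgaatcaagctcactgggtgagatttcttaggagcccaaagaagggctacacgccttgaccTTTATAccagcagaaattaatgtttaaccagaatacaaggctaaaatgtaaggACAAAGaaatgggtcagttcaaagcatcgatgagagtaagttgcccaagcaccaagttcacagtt
Kit, chr5:75574737-75575036, plus strand: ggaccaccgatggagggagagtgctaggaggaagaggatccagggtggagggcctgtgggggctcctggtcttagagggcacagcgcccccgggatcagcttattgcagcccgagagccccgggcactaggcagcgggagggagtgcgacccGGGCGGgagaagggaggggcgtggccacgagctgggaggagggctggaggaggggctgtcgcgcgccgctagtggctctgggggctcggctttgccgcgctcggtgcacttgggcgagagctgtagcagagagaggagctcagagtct
Ano1, chr7:144738524-144738823, minus strand: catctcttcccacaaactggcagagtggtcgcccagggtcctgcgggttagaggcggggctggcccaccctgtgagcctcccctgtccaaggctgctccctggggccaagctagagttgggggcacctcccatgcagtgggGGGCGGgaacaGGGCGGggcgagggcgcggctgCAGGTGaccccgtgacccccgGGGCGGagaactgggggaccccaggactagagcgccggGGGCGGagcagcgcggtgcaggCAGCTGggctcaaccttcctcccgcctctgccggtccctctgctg
Syp, chrX:7638330-7638629, plus strand: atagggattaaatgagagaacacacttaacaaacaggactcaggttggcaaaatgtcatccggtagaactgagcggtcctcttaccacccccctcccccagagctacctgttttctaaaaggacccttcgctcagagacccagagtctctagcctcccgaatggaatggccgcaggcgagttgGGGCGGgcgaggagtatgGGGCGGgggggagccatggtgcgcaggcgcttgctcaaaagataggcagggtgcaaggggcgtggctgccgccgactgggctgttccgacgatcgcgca

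These windows had no motif in common. Both Ddc windows held ACAAAG and no GC box, and the upstream one also held TATAAA. The Kit, Ano1 and Syp windows held GGGCGG, which stood in 13 of the 31 member windows and in 35.7% of 32851 promoter windows of this length. Ano1 also held CAGCTG and CACCTG, found in 16.3% and 20.2% of all windows. Over the members, ACAAAG was found for Ddc and Syt1 (18.7% of all windows), TATAAA for 6 genes (13.6%), GGACAGC for Tubb3 and Vip (6.56%), TGACGTCA for Th (1.79%) and TTCAGCACC for none (0.371%). A match is a run of letters and not a site shown to be bound.

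Outside the 32, 64 genes of the same cells and pathways were examined, of which 21 were tested. Of these, 3 (Penk, Ece1 and Npy1r) passed at unadjusted P, all lower in Siglec-XII and none after adjustment, and 7.67% of all genes tested were lower at that limit. With no filter on low values 9 of the 64 passed at unadjusted P, as did 6.52% of all genes above 0 in any sample. Of 30 other genes of enteric neurons, 9 were tested and 1, Penk, passed at unadjusted P. Penk, the precursor of enkephalins, stood at 3.60, 1.59, 1.88 and 3.69 TPM in Control 1 to 4 and at 1.34, 1.03, 0.700 and 0.311 TPM in Siglec-XII 1 to 4. Its groups did not overlap and the difference was -0.98 ± 0.26 (SE; limma, unadjusted P = 0.00414, adjusted p = 0.515). The next by P were Calcb (beta-CGRP), at 2.33 to 6.98 TPM in Control and 5.79 to 9.39 in Siglec-XII with a difference of 0.62, and Vsnl1 (a calcium sensor) with -0.82, neither of which passed. The median of the 30 genes was -0.06.

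Of 12 other glial genes, 5 were tested in limma and none of the 5 passed, the smallest P being that of L1cam (an adhesion molecule, -0.32, unadjusted P = 0.318, adjusted p = 0.620). Ncam1, a cell adhesion molecule too low to be tested, was at 0.328 to 0.524 TPM in Control and at 0.0764 to 0.235 in Siglec-XII, so its groups did not overlap. With no filter it had an unadjusted P in limma of 0.00437 (adjusted p = 0.682). Of 8 ligands and co-receptors of Ret, Ednrb and Kit, 4 were tested and Ece1, the enzyme that activates endothelins, passed at -0.52 (limma, unadjusted P = 0.0439, adjusted p = 0.515). Ece1 was at 31.05 to 37.63 TPM in Control, at 31.76 and 31.95 TPM in Siglec-XII 1 and 2 and at 15.61 and 19.15 TPM in Siglec-XII 3 and 4. Nrtn, a ligand acting through Ret, differed by -0.46 and Edn3, the ligand of Ednrb, by 0.09, and neither passed. Of 11 receptors and effectors for these transmitters, Vipr1 (-0.13) and Npy1r were tested. Npy1r, a receptor for neuropeptide Y, passed at -0.41 (limma, unadjusted P = 0.0325, adjusted p = 0.515). Vipr1 averaged 94.1 TPM in Control and Chrm2 of the same list 0.485, and these levels are not assigned to muscle. Of 3 genes of Pdgfra-positive interstitial cells, P2ry1, a purine receptor, was tested and differed by -0.07.

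Markers of the muscle in which these cells lie had lower means in Siglec-XII. The difference was below 0 for all 10 smooth muscle genes (as for 78.1% of all genes tested), with a median of -0.66, and 5 passed at unadjusted P in limma (7.67% of all genes tested were lower at that limit) but none after adjustment: Des (-0.70), Cnn1 (-0.75), Myh11 (-0.78), Smtn (-0.73) and Synpo2 (-0.64). Their summed TPM was 698 to 1105 in Control and 333 to 712 in Siglec-XII, with Siglec-XII 4 lowest and no marker at 0 in any sample. The 10 epithelial genes had a median difference of -0.02 and none passed, the smallest P being that of Lgals4 (difference 0.12). The 12 enteroendocrine genes had a median difference of -0.12, and none of the 9 tested passed, the smallest P being those of Tph1 (difference -0.36) and Chga (difference -0.32). The part that muscle content or the share of mitochondrial transcripts plays in the members' differences was not tested. With TPM rescaled to leave out mitochondrial transcripts, Snap25 differed by -0.49 (limma, unadjusted P = 0.00563) and the members' median was -0.142.

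**Figure D4:**
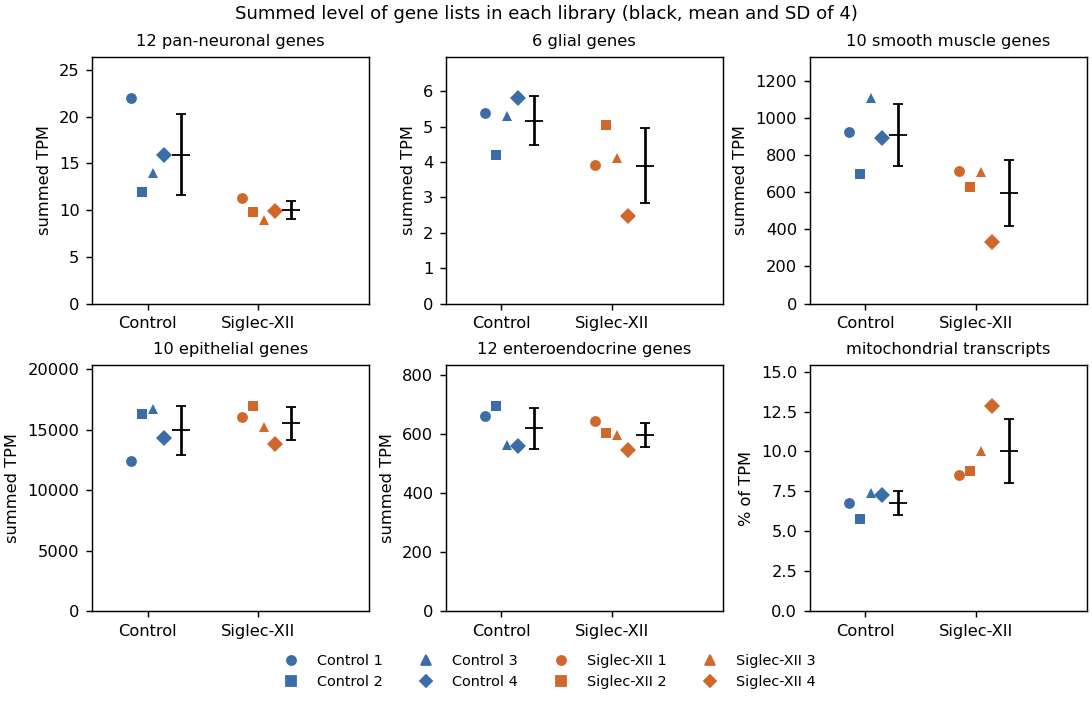
Summed TPM of 5 gene lists and the share of mitochondrial transcripts in each sample, with black bars for the mean and SD of the 4 samples of a group; every axis starts at 0. Pan-neuronal sums (11.9 to 22.0 TPM against 8.94 to 11.3) lie narrowly apart between the groups, with 1 of the 12 genes, Snap25, apart by itself. Smooth muscle sums overlap narrowly and epithelial sums widely, and no sum was rescaled for the shift of Siglec-XII 3 and Siglec-XII 4.

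How far a member's difference depended on the scale of the samples varied by gene. Snap25, Tubb3, Vip and Stmn2 were below 0 under all alternatives. Uchl1, Syp, Gfap and Fabp7 were above 0 under 1 alternative, the rescaling to smooth muscle genes, where they were at 0.15, 0.12, 0.13 and 0.11. Ddc was below 0 in 13 and Ano1 in 14 of 21 settings, so neither has a direction here, and Tac1 and Kit were below 0 in 19.

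**Figure D5:**
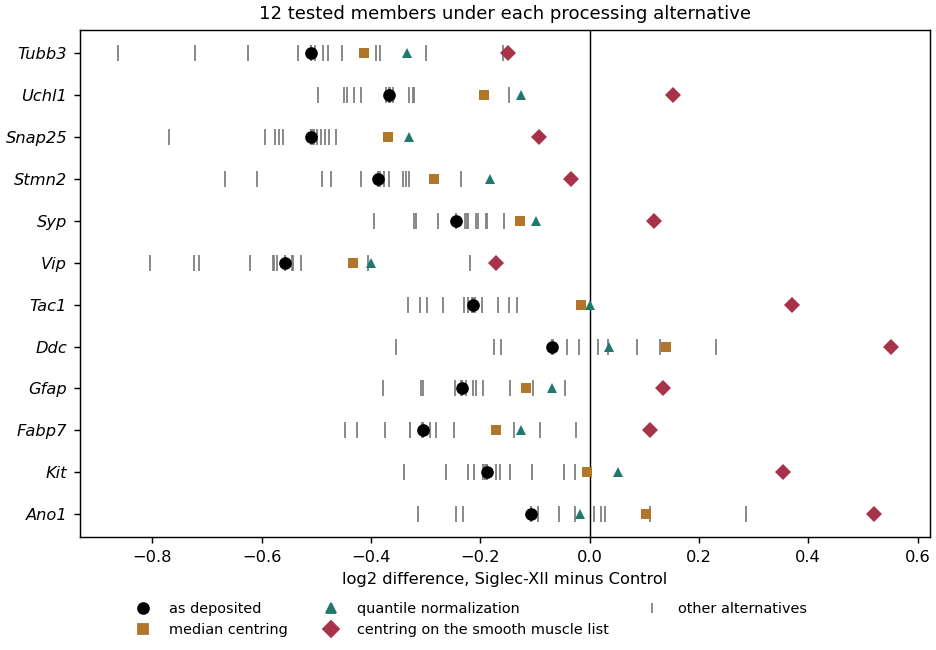
Difference between the groups for the 12 tested genes under each alternative, on the log2 scale; black circles are the values as reported, squares, triangles and diamonds are other scalings, and ticks are the remaining alternatives, among them each sample left out. Points of Ddc and Ano1 lie on both sides of 0, while those of Snap25, Tubb3, Stmn2 and Vip stay below it.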

How the data were processed

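The authors quantified reads with kallisto (0.45.0 and GRCm38 in the submitters' processing notes; the Methods name a human reference) and deposited log2(TPM + 1) for 52143 mouse Ensembl genes with no further scaling. The labels name a total RNA kit and the Methods an mRNA kit. TPM was recovered as 2 to the power of the value, minus 1. Depth is therefore unknown, and precision rests on 4 samples a group.

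Groups were taken from the labels. Differences were estimated with limma 3.58.1 (lmFit, eBayes with trend) in R 4.3.3 on genes at 1 TPM or more in 4 or more samples, with Benjamini-Hochberg adjustment over 13164 genes, a design also tested on simulated data. Members and lists were chosen with earlier results of these data known, so no test was made over a list. All 32 members are named; each sample's value is given for those past unadjusted P of 0.05, with groups apart, or among the 2 highest of a class, and from other lists up to 3 genes of smallest P, or up to 6 past 0.05; Ncam1 was named after its values were seen. Alternatives were other filters, a pseudocount of 0.1, other scalings (that without mitochondrial transcripts was added after seeing the data), variance options, symbols summed, the sample number as a block and samples left out. Correlations used scipy 1.17.1. Positions are from GENCODE M21, which holds 98.5% of the gene identifiers.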

Additional observations from a re-analysis of the deposited data

Results flagged for a closer look

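With 4 samples in a group, a sample was picked out where its gap to the nearest of the other 3, divided by the range of the group, was above Dixon's 95% limit. This was so in 3 of 63 groups of member values, where chance gives about 1 in 20, or 3.15. In Control 4, Nefl, a neurofilament gene, was lowest at 0.511 TPM against 0.754 to 0.793 in the other 3 (0.87 of the range). In Control 2, Npy was at 0.101 TPM while the other 3 were listed at 0 (1.0 of the range). In Control 3, Etv1 was highest at 1.07 TPM against 0.546 to 0.571 in the other 3 (0.944 of the range). The Etv1 groups did not overlap with or without that sample, since the lowest Control value of 0.546 TPM was above the highest Siglec-XII value of 0.487 TPM.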

How the results depend on the processing

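No member passed at an adjusted p of 0.05 in limma under any of the alternatives, nor at unadjusted P of 0.05 with a fold change of 2. The count at unadjusted P was 1 of 12 as reported (8.87% of all genes tested, in either direction), 4 of 32 with no filter (6.52%), 3 of 12 with array weights (14.1%) and 0 with a filter at 5 TPM, with quantile normalization or with rescaling to smooth muscle genes, and 1 to 3 with 1 sample left out. For the other enteric genes it was 3 as reported, 9 with no filter, 1 without Siglec-XII 3 and Siglec-XII 4, and 1 to 4 with 1 sample left out. Members below 0 numbered 31 of 32 as reported, against 78.1% of all genes tested. They numbered 29 with median centring (44%), 27 with quantile normalization (46.3%) and 15 with rescaling to smooth muscle genes (7.91%). The members' median of -0.158 was -0.394 with a pseudocount of 0.1, -0.054 with quantile normalization, -0.087 with median centring, 0.014 with rescaling to smooth muscle genes, -0.058 without Siglec-XII 3 and 4, and -0.227 to -0.112 with 1 sample left out.

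Signs turned for some genes. Rescaling to smooth muscle genes gave 0.15 for Uchl1, 0.12 for Syp, 0.37 for Tac1, 0.55 for Ddc, 0.13 for Gfap, 0.11 for Fabp7, 0.35 for Kit and 0.52 for Ano1. Quantile normalization gave 0.0011 for Tac1, 0.035 for Ddc and 0.052 for Kit. Median centring gave 0.14 for Ddc and 0.10 for Ano1, array weights 0.015 and 0.11, and leaving out Siglec-XII 3 and 4 gave 0.23 and 0.29. With 1 sample left out, Ddc ranged from -0.35 to 0.13 and Ano1 from -0.31 to 0.027. The cause of these turns was not tested.

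Deviations of same-numbered samples from their group means had r of -0.165, -0.204, 0.103 and -0.0025. Pairing of the samples is not stated, and with 4 samples in a group these values cannot exclude it. With the number as a block, 0 members passed after adjustment. At unadjusted P 1 member (Snap25) and 2 of the other enteric genes passed, as did 7.18% of all genes tested. With 4 samples in a group and 20 of 32 members too low to test, a modest difference in the low members could not be detected.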

Other observations

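The samples that stood highest or lowest differed by class of gene. Control 1 was the highest of its group for 7 of the 12 pan-neuronal genes. It was the highest of its group for 4 of the 11 transmitter genes and the lowest of its group for another 4. Among the latter is Npy, where Control 1 was tied at 0 with Control 3 and Control 4. Control 1 was the lowest of all 8 samples for 2 of the 3 pacemaker genes. Siglec-XII 4 was the lowest of all 8 samples for 4 of the 6 glial genes and for 12 of the 32 members. Control 1 was also highest in the summed TPM of 6 immune genes, at 5.67 against 1.58 to 2.78 in the other 7 samples, with the B cell gene Cd79a at 2.47 TPM.

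Genes of fat, which adheres to the outside of the colon, varied between samples of one genotype. The 5 adipocyte genes summed to 5.03 to 30.9 TPM in Control and to 4.67 to 14.5 in Siglec-XII, and none of the 3 tested (Fabp4, Cidec and Adipoq) passed in limma, with differences of -0.52, -0.09 and 0.05.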
